A study of Mus musculus with 24 samples.

Results

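The response of CA1 to a new environment was read from 5 libraries of control mice exposed to novelty and 6 libraries of control mice left naive, 11 of the 24 libraries of the series. They were chosen by their sample labels alone, and all genes were compared as novelty against naive. CA1 is the hippocampal field whose pyramidal neurons send most of the output of the hippocampus. Polyadenylated RNA of dissected CA1 was sequenced in a study of the acetyltransferase Kat2a in memory formation, and this comparison asks which transcripts follow novelty while Kat2a is present.

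Control novelty mice were C57BL/6J, 3 to 5 months old, Kat2a fl/fl, with 15 min of novelty exposure. Control naive mice had the same strain, age and genotype and no exposure. Both groups thus carry the floxed Kat2a allele and neither carries Cre. The remaining 13 libraries, 7 cKO novelty and 6 cKO naive, come from Kat2a fl/fl mice that also carry Cre under the CamKII-alpha promoter, which drives expression in excitatory forebrain neurons. The labels do not say which novelty was used, how long after it CA1 was dissected, the sex of the mice or how naive mice were handled. Nor do they say that each library is a separate mouse, so p-values measure the spread between libraries.

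When a neuron fires, calcium entry and kinases act on transcription factors that already sit at promoters, chiefly CREB at cyclic AMP response elements (CRE) and SRF at CArG boxes. The immediate early genes so switched on need no new protein. They encode transcription factors (Fos, Egr and Nr4a families), proteins that work at the synapse (Arc, Homer1, Bdnf) and inhibitors that end the signal (Dusp phosphatases, Sik1). In CA1, Fos, Arc and Egr1 are widely used as marks of neurons recently active in a new place. Arousal also releases glucocorticoids, whose receptor raises its own target genes in neurons and glia.

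Promoters of 8 genes that rose are shown because they hold copies of these elements close to the start of transcription. Each line gives the 120 bases before a RefSeq start in GRCm38.p6, read 5′ to 3′ on the gene's strand. Capitals mark a CRE (TGACGTCA), its shorter core (TGACG, or CGTCA on the other strand) or a CArG box. A full CRE contains the core on both strands. The genes and, for Egr2, Homer1 and Maff, the start among several listed were picked for their matches.
Egr2: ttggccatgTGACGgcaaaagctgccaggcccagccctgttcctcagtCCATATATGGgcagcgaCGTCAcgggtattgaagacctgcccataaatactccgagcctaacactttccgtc
Fos: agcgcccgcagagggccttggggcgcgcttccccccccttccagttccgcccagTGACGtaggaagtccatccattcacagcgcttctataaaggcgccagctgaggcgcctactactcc
Fosb: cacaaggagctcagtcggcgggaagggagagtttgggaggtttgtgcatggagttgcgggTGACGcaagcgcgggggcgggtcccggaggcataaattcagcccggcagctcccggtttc
Nr4a1: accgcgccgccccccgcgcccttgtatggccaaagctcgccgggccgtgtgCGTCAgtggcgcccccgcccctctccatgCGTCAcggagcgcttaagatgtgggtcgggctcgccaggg
Homer1: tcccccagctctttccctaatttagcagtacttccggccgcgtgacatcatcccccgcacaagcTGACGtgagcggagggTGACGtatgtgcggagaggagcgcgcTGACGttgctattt
Maff: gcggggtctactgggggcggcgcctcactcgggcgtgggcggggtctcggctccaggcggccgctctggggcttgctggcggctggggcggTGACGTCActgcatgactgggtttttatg
Arl4d: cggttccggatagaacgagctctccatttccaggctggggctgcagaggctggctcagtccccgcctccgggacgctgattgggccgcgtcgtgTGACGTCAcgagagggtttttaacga
Dusp5: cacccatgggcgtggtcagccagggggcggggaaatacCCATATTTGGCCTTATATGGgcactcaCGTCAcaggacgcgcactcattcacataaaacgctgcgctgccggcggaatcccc

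The windows lie at chr10:67537749-67537868 (plus strand, Egr2), chr12:85473770-85473889 (plus, Fos), chr7:19310046-19310165 (minus, Fosb), chr15:101266726-101266845 (plus, Nr4a1), chr13:93303637-93303756 (plus, Homer1), chr15:79347400-79347519 (plus, Maff), chr11:101665421-101665540 (plus, Arl4d) and chr19:53529025-53529144 (plus, Dusp5). The CRE of Arl4d begins 26 bases before the start and that of Maff 29 bases before it. Dusp5 has 2 CArG boxes side by side, and Egr2 has 1 between 2 CRE cores. Over the 250 bases before the start of the gene, 38.6% of the genes that rose held the CRE core on either strand, against 26.3% of the genes tested. A full CRE was found in 5.3% against 2.7%, and a CArG box in 4.55% against 1.09%. These shares cover the genes with a promoter entry, 132 of 164 that rose (80.5%) and 11909 of 16100 tested (74.0%), a coverage too low for the comparison to count as a check. Over all 32851 RefSeq promoters in the table, which include genes not expressed in CA1, the shares were 17.8% for the core, 1.55% for the CRE and 1.47% for the CArG box. A match is a description of these letters and not a measured binding site.

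Assigned reads came to 13.9 to 35.8 M (mega) reads in control novelty libraries and 10.7 to 23.4 M in control naive libraries. Levels are CPM, counts per M assigned reads, after scaling by TMM, whose factors were 0.987 to 1.01 in both groups. The shallowest library, control naive 2, also stood apart on the leading principal component, at -38.2 against -9.28 to 11.7 in the other 10 libraries. Kat2a, the floxed gene, had 31.2 to 38.3 CPM in cKO novelty and 32.5 to 39.3 CPM in cKO naive libraries, against 56 to 64.2 CPM in control novelty and 59.3 to 70.3 CPM in control naive libraries, all scaled together. Within controls Kat2a did not pass (log2 fold change -0.09 ± 0.05 SE, adjusted p = 0.652). The 12 markers of CA1 pyramidal neurons summed to 5150 to 6680 CPM in control novelty and 5240 to 5750 CPM in control naive libraries. Most of this was Camk2a, at means of 4200 and 3920 CPM. As Camk2a is active in excitatory forebrain neurons at large, the sum does not set CA1 apart from neighbouring fields. Among the other markers, Mpped1 averaged 438 and 440 CPM and Wfs1 225 and 191 CPM in control novelty and control naive libraries. Markers of dentate granule neurons summed to 254 to 515 and 238 to 444 CPM, and those of CA3 to 1090 to 1240 and 1160 to 1270 CPM, in the same order, so transcripts that mark neighbouring fields were found in both groups.

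Of 16100 genes tested with edgeR's quasi-likelihood F test, 196 (1.22%) passed at a Benjamini-Hochberg adjusted p below 0.05. Of these, 164 (1.02%) were higher and 32 (0.199%) lower after novelty. Most changes were small: 62 genes (0.385%) passed with more than a 1.5-fold change, 51 higher (0.317%) and 11 lower (0.0683%), and 18 were more than 2-fold higher and 2 more than 2-fold lower. The 5 novelty libraries lay wholly above the 6 naive libraries in 140 of the 164 genes that rose and wholly below them in 27 of the 32 that fell, while over all genes tested the groups were so separated in 1.51% upward and 0.876% downward. The genes that rose or fell were picked by a test on these same libraries, so their separation follows in part from the choice. Without control novelty 2 the count of genes that passed was 113, without control novelty 5 it was 116 and without control naive 6 it was 128. Leaving out the library that stood apart, control naive 2, gave 255. In CA1 tissue, a fall in a transcript that is specific to a cell type could be fewer cells or less RNA per cell, and these cannot be told apart.

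**Figure D1:**
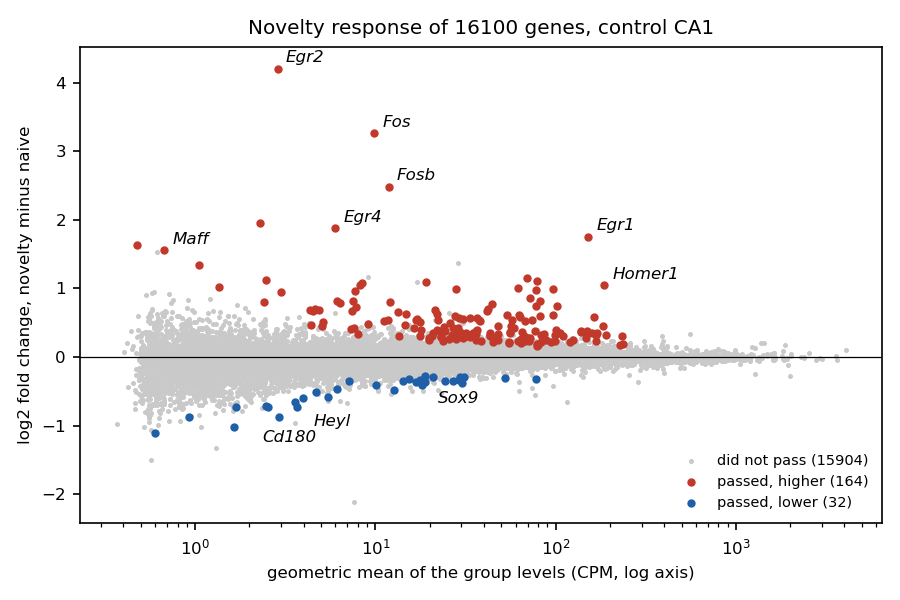
Log2 fold change after novelty (vertical axis) against the geometric mean of both groups' levels in CPM (horizontal, log axis) for 16100 genes, with the 164 genes that rose in red, the 32 that fell in blue and the rest in grey. Egr2, Fos and Fosb stand highest, and the genes that fell lie mostly within 1 log2 unit of 0.

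The response was led by transcription factors that neurons switch on with activity. Among 30 inducible transcription factors 15 rose and none fell, against 1.02% and 0.199% of all genes, and their median log2 fold change was 0.50, against -0.01 over all genes tested. This list and those below were chosen with earlier results of these data known, so such shares are a description and not a test. Egr2, a zinc finger factor of the Egr family on chr10:67535475-67542188 (GRCm38, positions of genes as in the authors' deposited table), had 9.01, 16.2, 6.16, 12.3 and 18.1 CPM in control novelty libraries 1 to 5, against a lowest, median and highest of 0.247, 0.705 and 1.11 CPM in control naive libraries. All exposed libraries exceed every naive one several times over, while differing almost 3-fold among themselves. The rise was 18.4-fold (log2 fold change 4.20 ± 0.36 SE, adjusted p = 0.000102). Fos, the AP-1 subunit on chr12:85473890-85477273, had 19.8, 37.2, 23.2, 35.1 and 38.7 CPM in control novelty, against 1.98, 2.71 and 5.71 CPM (lowest, median, highest) in control naive libraries. Its rise was 9.59-fold (3.26 ± 0.27, adjusted p = 0.000112), with control naive 4 the highest naive library and still far below the lowest exposed one. Fosb, a paralogue of Fos on chr7:19302721-19310045, had 19.7, 30.2, 27.6, 28.3 and 35.5 CPM in control novelty, against 3.22, 5.21 and 6.32 CPM in control naive libraries, a 5.59-fold rise (2.48 ± 0.16, adjusted p = 1.55e-06).

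The other Egr genes rose as well, by differing amounts. Egr1 had 228, 324, 241, 295 and 297 CPM in control novelty, against 68.4, 83.5 and 92.8 CPM in control naive libraries, a 3.37-fold rise (1.75 ± 0.10, adjusted p = 6.2e-07). Its groups lie far apart, and its SE is the smallest among the Egr genes. Egr4 had 9.79, 10.3, 9.79, 15.5 and 12.9 CPM in control novelty, against 1.61, 3.09 and 4.5 CPM in control naive libraries (1.87 ± 0.20, adjusted p = 0.000274). Egr3 had 37.7, 36.9, 35.7, 47.8 and 39.4 CPM in control novelty, against 13.5, 20.2 and 25.7 CPM in control naive libraries (0.99 ± 0.14, adjusted p = 0.00243). Neither gene overlaps between groups. Nab2, a corepressor that binds Egr proteins and was picked out after its values were seen, averaged 28.1 ± 2.4 CPM in control novelty and 20.5 ± 1.96 CPM in control naive libraries (SD, n = 5 and 6, log2 fold change 0.44, adjusted p = 0.00579).

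The Nr4a orphan nuclear receptors rose together. Nr4a1 had 97.9, 110, 67.3, 126 and 117 CPM in control novelty, against 37, 50.5 and 52.2 CPM in control naive libraries (1.15 ± 0.15, adjusted p = 0.00261). Nr4a3 had 124, 160, 108, 135 and 151 CPM, against 58.8, 66.6 and 78.8 CPM (0.99 ± 0.10, adjusted p = 0.000181). Nr4a2 had 100, 139, 154, 129 and 134 CPM, against 67.1, 79.4 and 94.7 CPM (0.74 ± 0.11, adjusted p = 0.00383). In none of the 3 did an exposed library reach down to a naive one. Control novelty 3 was lowest for Nr4a1 and Nr4a3 and highest for Nr4a2.

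Of the remaining factors in the list, Fosl2, Maff, Klf2, Klf10, Ier5 and Srf also rose. Fosl2, an AP-1 subunit, averaged 101 ± 16.3 CPM in control novelty and 60.4 ± 8.38 CPM in control naive libraries (0.74 ± 0.12, adjusted p = 0.00588). Maff, a small Maf factor, averaged 1.16 ± 0.311 and 0.389 ± 0.152 CPM, a low level at which few reads decide the value (1.56 ± 0.28, adjusted p = 0.00979). Srf, the factor that binds CArG boxes, averaged 74.3 ± 5.65 and 60.1 ± 4.89 CPM (0.30 ± 0.06, adjusted p = 0.0276), with groups that overlap.

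Several textbook immediate early genes did not pass. Junb, an AP-1 subunit, had 20.1, 21.4, 15.4, 32.6 and 36 CPM in control novelty, against 5.4, 10.9 and 19 CPM in control naive libraries. Its log2 fold change of 1.09 was close to that of Arc, but its SE of 0.32 was more than that of any other AP-1 gene named here, and its adjusted p was 0.19. Jun had 54, 47.5, 47.5, 48.4 and 47.7 CPM, against 36.4, 40.7 and 48.2 CPM (0.24 ± 0.07, adjusted p = 0.116). Without control naive 4 Jun passed, at an adjusted p of 0.0284. Ier2 had 2.14 to 3.83 CPM in control novelty and 0.758 to 3.89 CPM in control naive libraries, and Btg2, a regulator of mRNA decay, 11.3 to 14.8 and 10.7 to 13.5 CPM (adjusted p = 0.882 and 0.538). Npas4, a neuron-specific factor induced by calcium entry, had 3.85, 3.66, 4.6, 6.31 and 4.41 CPM in control novelty, against 4.31, 6.46 and 8.13 CPM in control naive libraries. Its difference ran downward and did not pass (-0.52 ± 0.17, adjusted p = 0.202).

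**Figure D2:**
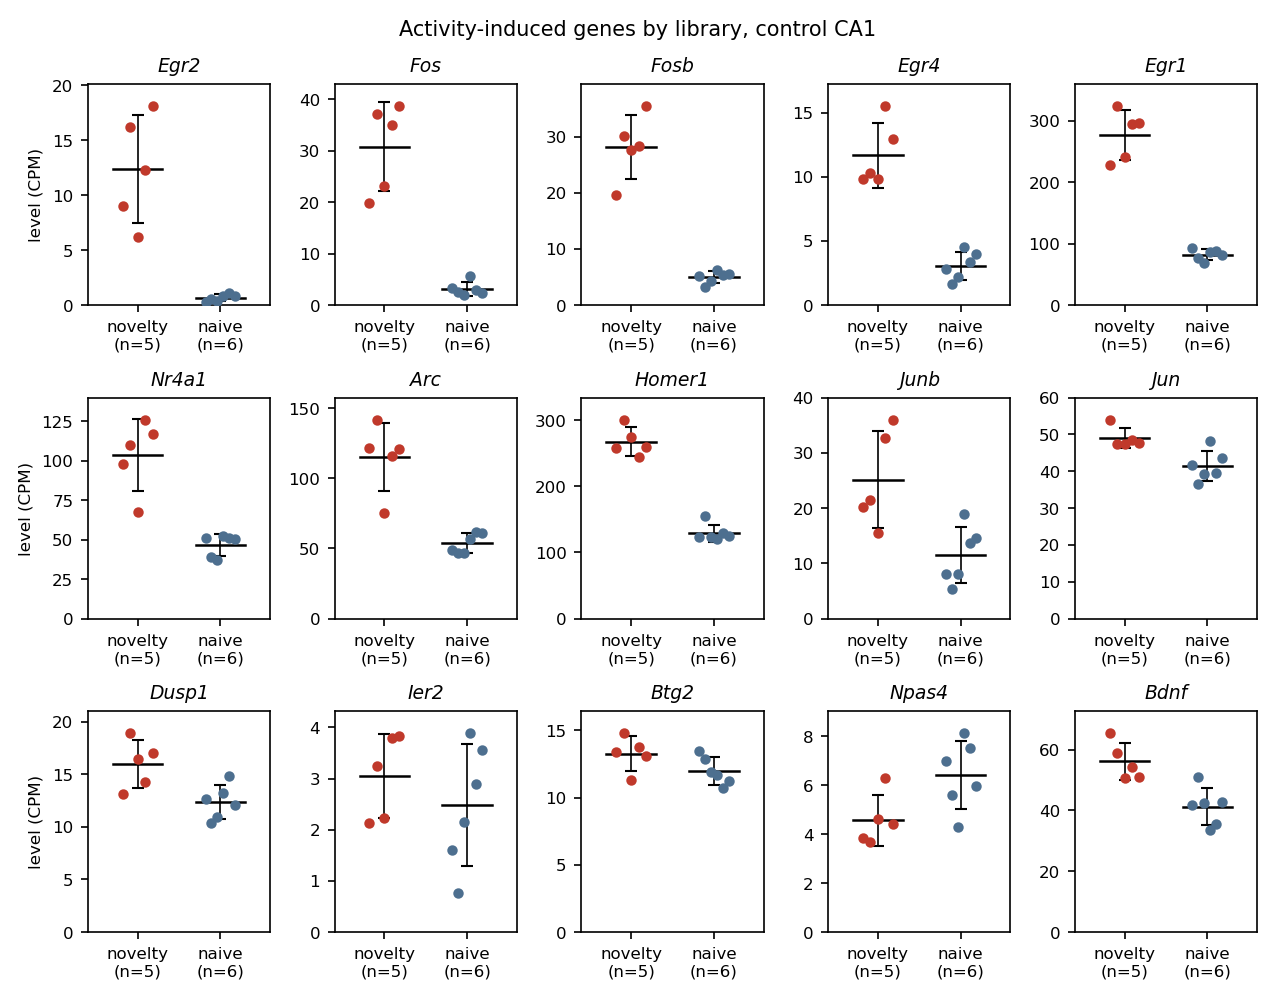
Levels in CPM of 15 activity-regulated genes, 1 point per library, with control novelty (n = 5, red) left of control naive (n = 6, blue), bars at the mean and whiskers of 1 SD. The groups are fully separated for Egr2, Fos, Fosb, Egr4, Egr1, Nr4a1, Arc and Homer1 and overlap for Junb, Jun, Dusp1, Ier2, Btg2, Npas4 and Bdnf.

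Genes whose products act at the synapse or are secreted rose in 9 of 24 cases, and none fell, against 1.02% and 0.199% of all genes. The median of the list was 0.25 on the log2 scale. Arc, which promotes the removal of AMPA receptors from synapses and lies on chr15:74669083-74672570, had 122, 142, 75.5, 116 and 121 CPM in control novelty, against 46.7, 52.7 and 61.9 CPM in control naive libraries (1.10 ± 0.14, adjusted p = 0.00173). Control novelty 3 held the least Arc of the exposed libraries, 75.5 CPM, and still exceeded every naive library. Homer1, a postsynaptic scaffold on chr13:93303757-93404129, had 258, 301, 275, 245 and 260 CPM, against 121, 124 and 155 CPM (1.05 ± 0.07, adjusted p = 6.2e-07). Activity induces the short Homer1a form, which counts per gene do not separate from the long forms. The library that stood apart, control naive 2, was the highest naive library for Homer1.

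Arl4d, a small GTPase of the Arf-like family, had 8.57, 11.2, 11, 14.9 and 15.4 CPM in control novelty, against 4.79, 5.69 and 6.54 CPM in control naive libraries (1.08 ± 0.14, adjusted p = 0.000789). Nptx2, a secreted pentraxin that clusters AMPA receptors, averaged 33.9 ± 4.98 and 22.5 ± 1.71 CPM (0.59 ± 0.09, adjusted p = 0.00196). Arl5b, the prohormone convertase Pcsk1, the receptor Gpr3 and the plasminogen activator Plat rose by 0.67, 0.57, 0.68 and 0.24 on the log2 scale. Bdnf, the neurotrophin, had 65.4, 58.9, 50.8, 54.4 and 51.1 CPM in control novelty, against 33.7, 42.1 and 50.9 CPM in control naive libraries. The highest naive library sits among the lower exposed ones, and the difference passed narrowly (0.46 ± 0.10, adjusted p = 0.0333). It passed in 5 of the 11 fits that leave out 1 library, and was lost without control novelty 1, 2 or 4 or control naive 1, 5 or 6, with adjusted p up to 0.0866. Members that did not pass include Vgf (0.26, adjusted p = 0.665), Nptx1 (0.13, 0.769), Ptgs2 (0.06, 0.986) and the kinase Plk2 (0.23, 0.135).

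Inhibitors of the same signalling pathways rose alongside. Of 38 feedback regulators 37 were tested, 15 rose and none fell, against 1.02% and 0.199% of all genes, with a median of 0.28. Dusp5, a nuclear phosphatase of ERK, had 28.7, 31.4, 21.1, 24.6 and 34.2 CPM in control novelty, against 9.32, 13.8 and 15.6 CPM in control naive libraries (1.10 ± 0.14, adjusted p = 0.00138). Sik1, a kinase that holds the CREB coactivators in the cytoplasm, had 11.9, 12.9, 9.57, 12.4 and 12.7 CPM, against 5.13, 5.71 and 6.62 CPM (1.05 ± 0.10, adjusted p = 3.4e-05). Both genes more than doubled, with no overlap between groups. The ERK phosphatases Dusp6 and Dusp4 rose by 0.62 and 0.51, and the Ras pathway inhibitors Spry4, Spred1 and Spred2 by 0.46, 0.32 and 0.25. Errfi1, an inhibitor of the EGF receptor, had 59.6, 62.3, 43.8, 53.9 and 70.7 CPM in control novelty, against 30.6, 34.7 and 37 CPM in control naive libraries (0.77 ± 0.10, adjusted p = 0.000708).

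The feedback list also covers proteins that act on other routes. Rasd1, a Ras-like GTPase induced by dexamethasone, averaged 53.9 ± 5.12 CPM in control novelty and 33.1 ± 3.55 CPM in control naive libraries (0.70 ± 0.08, adjusted p = 0.000181). Midn, which delivers short-lived nuclear proteins to the proteasome, averaged 45.6 ± 4.34 and 31.6 ± 2.22 CPM (0.53 ± 0.07, adjusted p = 0.000663). Tiparp, Gadd45b, Rasl11b and Pim3 rose by 0.69, 0.68, 0.53 and 0.39. Dusp1, a phosphatase often counted among immediate early genes, had 13.1, 18.9, 16.4, 14.3 and 17 CPM in control novelty, against 10.4, 12.3 and 14.8 CPM in control naive libraries. The groups overlap and it did not pass (0.37 ± 0.11, adjusted p = 0.124). The mRNA decay factors Zfp36, Zfp36l1 and Zfp36l2 had log2 fold changes of 0.20, -0.41 and -0.23, none of which passed.

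Transcripts of the CREB and ERK routes upstream of these genes moved little, and the activity of their proteins was not measured. None of 21 genes for CREB, its coactivators and histone acetyltransferases and deacetylases passed, against 1.22% of all genes tested. Their log2 fold changes stayed between -0.09 and 0.11. At an unadjusted p below 0.05 there were 2 such genes, both higher, against 1778 of all 16100 genes tested. Of 23 genes of the ERK cascade only Elk4, a partner of SRF, rose. It had 32.2, 31.7, 28.3, 31.6 and 31.9 CPM in control novelty, against 23.9, 25.5 and 29.3 CPM in control naive libraries (0.28 ± 0.06, adjusted p = 0.0347). It passed in 4 of 11 fits without 1 library, with adjusted p up to 0.1. Among 15 cytoskeletal targets of SRF 14 were tested and 1 rose, the non-muscle myosin heavy chain Myh9 (119 ± 7.31 and 93.6 ± 8.96 CPM, 0.35 ± 0.06, adjusted p = 0.0119).

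Of 22 glucocorticoid-responsive genes 21 were tested, 7 rose and none fell, against 1.02% and 0.199% of all genes. The median of 0.41 was nearly that of the inducible transcription factors. All 21 had a positive log2 fold change, from 0.12 to 1.01, while the median over all genes tested was -0.01. Tsc22d3, an anti-inflammatory target of the glucocorticoid receptor, had 81.1, 94.7, 93.4, 94.8 and 120 CPM in control novelty, against 48.2, 53.1 and 57.6 CPM in control naive libraries (0.86 ± 0.08, adjusted p = 5.87e-05). Sgk1, a kinase induced by serum and glucocorticoids, had 72.4, 82.7, 68.7, 96.2 and 118 CPM, against 34.1, 44 and 50.2 CPM (1.01 ± 0.14, adjusted p = 0.00272). Both genes are separated between groups, and both are highest in control novelty 5. Klf9 rose by 0.33. Cdkn1a, Errfi1, Nfkbia and Per1, the remaining members that rose, belong to other lists as well. Fkbp5, a chaperone of the receptor and its common marker gene, had a log2 fold change of 0.31 and did not pass (adjusted p = 0.147).

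Of 19 circadian clock genes 3 rose and none fell, against 1.02% and 0.199% of all genes, with a median of 0.11. Per1, a repressor of the clock that calcium and glucocorticoids can also induce, had 89.9, 112, 90, 120 and 132 CPM in control novelty, against 47.8, 54.7 and 62.8 CPM in control naive libraries (0.97 ± 0.10, adjusted p = 0.000166). Per2 averaged 44.6 ± 3.13 and 30.1 ± 2.67 CPM (0.56 ± 0.07, adjusted p = 0.000321). Bhlhe40, a repressor of clock targets, averaged 214 ± 11.3 and 156 ± 11.9 CPM (0.46 ± 0.06, adjusted p = 0.000342). None of the 3 overlaps between groups. The activators Clock and Bmal1 had log2 fold changes of 0.04 and -0.10, and the output genes Dbp and Nr1d1 0.01 and 0.00, with adjusted p from 0.825 to 0.998.

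Plekhf1, an endosomal protein that binds phosphoinositides and belongs to no list, was also among the largest rises. It had 2.78, 3.66, 2.76, 4.16 and 5.05 CPM in control novelty, against 1.23, 1.64 and 2.11 CPM in control naive libraries, with no overlap (1.12 ± 0.19, adjusted p = 0.00646).

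Small parts of stress and metabolic pathways rose, where 1.02% of all genes tested did. Among 21 cytosolic heat shock chaperones 2 co-chaperones of Hsp70 rose. Dnajb5 averaged 200 ± 16.7 CPM in control novelty and 133 ± 4.22 CPM in control naive libraries (0.58 ± 0.05, adjusted p = 3.4e-05), and Dnajb1 68.5 ± 7.02 and 47.3 ± 2.8 CPM (0.53 ± 0.07, adjusted p = 0.000395). The Hsp70 genes Hspa1a and Hspa1b had 0.18 and 0.15 and did not pass (adjusted p = 0.834 and 0.814), although as near-identical copies they may lose reads in counting. Among 25 endoplasmic reticulum stress genes the chaperone Hspa5 (0.30) and Herpud1 (0.25) rose, in 4 and 3 of the 11 fits that leave out 1 library. Among 21 p53 response genes 3 rose. The cell cycle inhibitor Cdkn1a had 7.4, 12.9, 14.2, 10.7 and 8.82 CPM in control novelty, against 3.7, 5.42 and 7.14 CPM in control naive libraries (0.96 ± 0.18, adjusted p = 0.0127). The death receptor Fas averaged 1.93 ± 0.168 and 0.947 ± 0.228 CPM (1.02 ± 0.18, adjusted p = 0.00757), and Sesn1 rose by 0.23. Mdm2, a direct p53 target, had 0.14 (adjusted p = 0.266).

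Among the genes tested for cholesterol synthesis and uptake none fell, and the median of the list was 0.08. Cyp51, an enzyme of the route, averaged 92.4 ± 7.25 CPM in control novelty and 73.7 ± 5.03 CPM in control naive libraries (0.33 ± 0.06, adjusted p = 0.0112). Slc2a1, the glucose transporter of vessels and glia, was the 1 gene that rose of 17 tested for hypoxia and glucose uptake. It had 75.6, 80, 71.5, 88.6 and 89.5 CPM in control novelty, against 42.5, 58.1 and 62.5 CPM in control naive libraries (0.53 ± 0.09, adjusted p = 0.00544). Nfkbia, the inhibitor of NF-kappa-B, was the 1 gene that rose of 17 tested in that pathway (20.6 ± 2.7 and 13.9 ± 1.77 CPM, 0.56 ± 0.10, adjusted p = 0.00764).

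**Figure D3:**
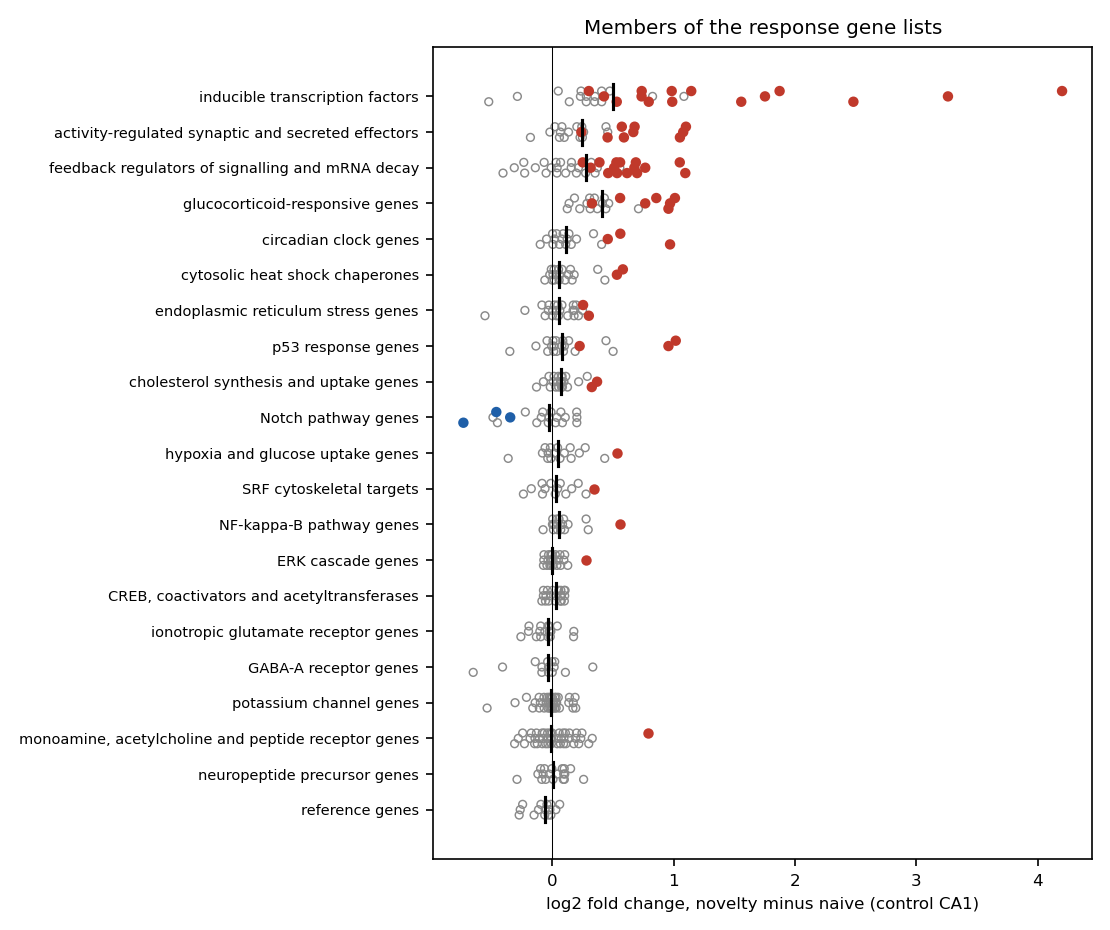
Log2 fold change after novelty (horizontal axis) of each tested member of 21 gene lists (rows), with members that rose in red, members that fell in blue, members that did not pass as open circles and the list's median as a black bar. The inducible transcription factors and the glucocorticoid-responsive genes have the highest medians, 0.50 and 0.41, and the receptor and channel lists centre on 0.

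The receptor and channel gene lists centred near 0. None of the 17 ionotropic glutamate receptor genes, 14 GABA-A receptor genes, 40 potassium channel genes and 19 neuropeptide precursor genes tested passed, and their medians were -0.04, -0.03, -0.01 and 0.01. As 1.22% of all genes tested passed, lists of this size would hold few or no calls, so their absence says little about these genes. At an unadjusted p below 0.05 there were 2, 0, 5 and 0 of them, against 1778 of all 16100 genes tested. Of 45 monoamine, acetylcholine and peptide receptor genes tested 1 rose, the melanocortin receptor Mc4r. It had 10.7, 7.16, 6.7, 7.82 and 9.98 CPM in control novelty, against 3.21, 5.15 and 6.21 CPM in control naive libraries (0.79 ± 0.17, adjusted p = 0.0393), and it passed in 2 of the 11 fits without 1 library, with adjusted p up to 0.122. Of 15 reference genes none passed, and their median was -0.06.

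The 32 genes that fell did so by less than the leading rises. Of 20 Notch pathway genes 3 fell, against 0.199% of all genes, and none rose. The list was chosen with earlier results of these data known, so this share is a description and not a test. The median of the list, -0.03, was near that of all genes, -0.01. Jag1, a Notch ligand on chr2:137081456-137116644, had 5.5, 5.28, 5.51, 5.24 and 4.64 CPM in control novelty, against 6.71, 7.25 and 7.81 CPM in control naive libraries (-0.46 ± 0.08, adjusted p = 0.00971). Notch1, the receptor, had 24, 20.8, 20.9, 24.5 and 18.1 CPM, against 25.1, 27.8 and 29 CPM (-0.35 ± 0.07, adjusted p = 0.0344). Heyl, a transcriptional repressor downstream of Notch, had 3.26, 2.24, 3.19, 3.3 and 2.32 CPM, against 3.88, 4.59 and 5.74 CPM (-0.73 ± 0.15, adjusted p = 0.0201). In all 3 the highest exposed library lies below the lowest naive one. Jag1 passed in all 11 fits that leave out 1 library, Heyl in 8 (lost without control novelty 2 or 5 or control naive 5, adjusted p up to 0.0866) and Notch1 in 4 (adjusted p up to 0.117). The canonical targets Hes1 and Hes5 had -0.01 and -0.49 and did not pass (adjusted p = 0.997 and 0.243).

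Sox9, a transcription factor of astrocytes, had 17.2, 17.8, 15.6, 17.2 and 15.4 CPM in control novelty, against 20.2, 21.1 and 22.9 CPM in control naive libraries (-0.36 ± 0.06, adjusted p = 0.00604). It was the gene with the smallest p among those that fell. Of the 15 astrocyte markers 1 other passed, and in the opposite direction: Ppp1r3c, a subunit that targets a phosphatase to glycogen, averaged 74.4 ± 7.54 and 57.6 ± 3.09 CPM (0.37 ± 0.06, adjusted p = 0.00662). The astrocyte markers summed to 6720 to 7140 CPM in control novelty and 6140 to 7650 CPM in control naive libraries and the ranges overlap.

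Of 15 markers of microglia and macrophages 2 fell and none rose, against 0.199% and 1.02% of all genes. Cd180, a Toll-like receptor homologue, had 2.39, 2.18, 2.65, 1.87 and 1.57 CPM in control novelty, against 2.93, 4.17 and 4.88 CPM in control naive libraries (-0.87 ± 0.17, adjusted p = 0.0145). P2ry13, a receptor for ADP, had 17.3, 14.6, 15.4, 15.4 and 16 CPM, against 18.6, 19.6 and 22.5 CPM (-0.34 ± 0.07, adjusted p = 0.0148). Both lost the call without control novelty 2, at adjusted p of 0.051 and 0.0717. The 15 markers summed to 488 to 548 CPM in control novelty and 510 to 567 CPM in control naive libraries, ranges that overlap, and Cx3cr1, P2ry12 and Csf1r had -0.09, -0.13 and -0.05 (adjusted p from 0.618 to 0.865). The part of cell composition in these falls was not tested.

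**Figure D4:**
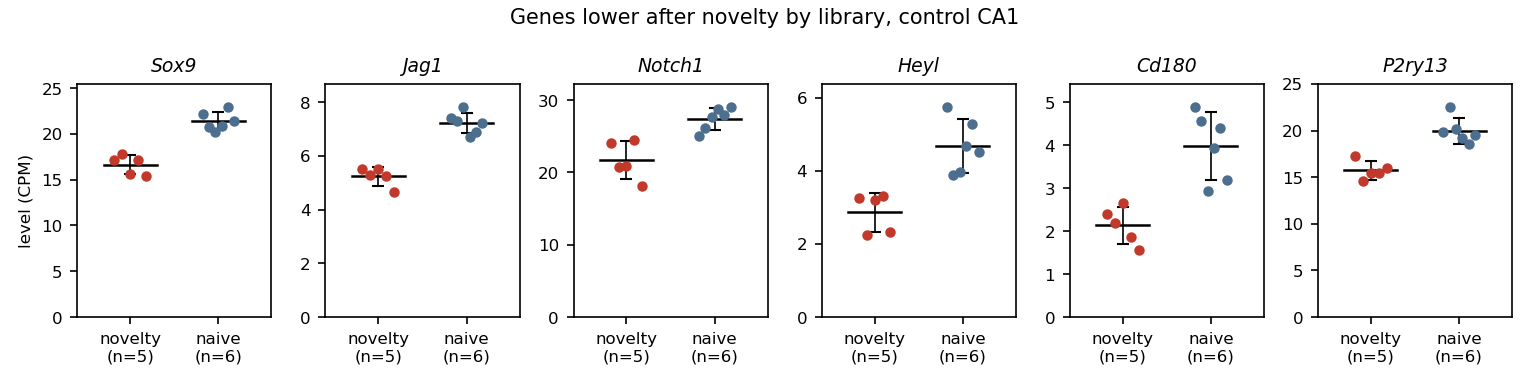
Levels in CPM of 6 genes that fell, 1 point per library, with control novelty (n = 5, red) left of control naive (n = 6, blue), bars at the mean and whiskers of 1 SD. In each panel all exposed libraries lie below all naive ones, by a smaller margin than in the leading genes that rose.

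The other genes named among the largest falls belong to no list. They are Klhdc9 (-0.65), Tmem194b (-0.59), Ppcs, an enzyme of coenzyme A synthesis (-0.51), Zkscan2 (-0.41), Nlrx1 (-0.40), the Krüppel-like factor Klf7 (-0.39), Nrde2 (-0.36), the lipoxygenase Aloxe3 (-0.36), Zfp941 (-0.35) and Lsm10, a protein of the U7 particle that processes histone mRNA (-0.35). Klf7 averaged 26.5 ± 2.07 CPM in control novelty and 34.7 ± 3.08 CPM in control naive libraries (adjusted p = 0.0116), while Klf2 and Klf10 of the same family rose by 0.80 and 0.43. Tmem194b, Klf7 and Zfp941 passed in all 11 fits without 1 library. Ppcs passed in 7 and the remaining 6 in 2 to 4, with adjusted p up to 0.164. Over all genes, 94 of 164 rises and 6 of 32 falls passed in every such fit.

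Few markers of other cell types passed, where 1.22% of all genes tested did. Of 12 CA1 markers 1 rose, the ciliary receptor Gpr161 (87.8 ± 9 and 67.4 ± 8.45 CPM, 0.38 ± 0.09, adjusted p = 0.0446), which passed in 4 of 11 fits without 1 library. Heyl was the 1 gene that fell of 11 markers of pericytes and smooth muscle, which summed to 220 to 238 CPM in control novelty and 228 to 254 CPM in control naive libraries. No marker of CA2, CA3, the dentate gyrus, subiculum, interneurons, oligodendrocytes and their precursors, endothelium, choroid plexus, ependyma, meninges or red blood cells passed. Choroid plexus markers reached 119 CPM in a naive library and 47.7 CPM at most in an exposed one. Of these, Ttr averaged 3.72 ± 4.48 CPM in control novelty and 15.7 ± 34.4 CPM in control naive libraries, and Kl 24.4 ± 3.08 and 21.1 ± 2.4 CPM. The groups' ranges of summed levels overlapped for every one of the 16 marker lists.

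The exposed libraries shared the response but not its strength. Each of the 5 lay above the naive mean in all 164 genes that rose and below it in all 32 that fell, which follows in part from their having entered the fit. The number of rises in which a library exceeded every naive one was 158, 162, 151, 161 and 162 for control novelty 1 to 5. Among the 13 named genes that rose more than 2-fold with a mean count of at least 50, control novelty 5 was the highest exposed library 7 times and control novelty 3 the lowest 8 times.

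The largest rises included many short genes. The 18 genes with more than a 2-fold rise had a median span of 9.2 kb and 4 exons, against 23.0 kb and 6 exons for all 164 genes that rose and 22.3 kb and 8 exons for all genes tested (GENCODE M21 gene models). Of the 18, 50% spanned less than 10 kb, against 29.0% of all genes tested. Others of the 18 were long, among them Sgk1 at 118 kb, Homer1 at 105 kb and Fas at 37.1 kb. These values are a description with no test.

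A noncoding gene stood among the largest rises and was picked out after its values were seen. 1700016P03Rik, at chr11:75172560-75177633, had 4.33, 4.56, 2.97, 5.31 and 5.34 CPM in control novelty, against 0.647, 1.04 and 1.95 CPM in control naive libraries, a 3.87-fold rise (1.95 ± 0.23, adjusted p = 0.000309). GENCODE M21 marks it as a host of small RNAs, and the miRNA genes Mir212 and Mir132 lie inside it on the same strand. Their 3p mature forms, from RefSeq (GRCm38.p6), share the seed, bases 2 to 8, shown in capitals. Mature miRNAs are not measured by sequencing of polyadenylated RNA, so the lines show what the host transcript encodes and not a level.
mmu-miR-212-3p: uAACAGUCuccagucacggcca
mmu-miR-132-3p: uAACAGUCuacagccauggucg

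Libraries whose titles are numbered 1 to 3 and those numbered 4 and above were compared apart as well, a split that the labels do not explain. Whether the parts differ technically was not tested here, so a gap between them cannot be read as a difference between mice. All 58 named genes that passed kept their sign in both parts. They were chosen on these same libraries, so this follows in large part from the choice and is no check. Fos had differences of 3.30 and 3.38 on the log2 scale and Homer1 1.06 and 1.02 in libraries 1 to 3 and 4 and above. Larger gaps were seen for Sgk1, 0.71 and 1.37, and Cdkn1a, 1.28 and 0.59, each from at most 3 libraries a side. These gaps were not tested.

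The same exposure in cKO mice, 7 novelty against 6 naive libraries, uses none of the 11 control libraries. Of the 164 genes that rose in controls 163 were tested there and 162 had the same sign. Over all genes tested in both genotypes, 46.1% were higher and 53.9% lower after novelty in cKO mice. Of the 163, 110 passed (67.5%), against 1.92% of all genes tested in cKO mice that passed as higher. Of the 32 that fell in controls 31 had the same sign and 6 passed (18.8%), against 0.484% of all genes that passed as lower. Fos had 3.36, Egr2 4.57 and Homer1 1.26 on the log2 scale in cKO mice. Notch1 and P2ry13 fell there too (-0.38 and -0.47, adjusted p = 0.000379 and 0.000298), whereas Sox9 and Heyl had -0.20 and -0.26 and did not pass (adjusted p = 0.292 and 0.478).

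The difference between the genotypes' responses was tested over all 24 libraries. None of 16744 genes passed the interaction of genotype with novelty in edgeR, 688 (4.11%) had an unadjusted p below 0.05, and the smallest adjusted p was 1. Of the 196 genes that passed in controls 25 (12.8%) had an unadjusted p below 0.05, a share that cannot be set against the 4.11%, because these genes were chosen on libraries that also enter the interaction. DESeq2 and limma-voom called 0 as well, with 651 and 760 unadjusted. In the named set the control response minus the cKO response was largest for Npas4 (-1.20 ± 0.55 SE on the log2 scale), while Aloxe3 (-0.42 ± 0.12 SE) and Fosl2 (-0.49 ± 0.17 SE) had the smallest p before adjustment. The absence of calls does not show that the responses are equal.

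**Figure D5:**
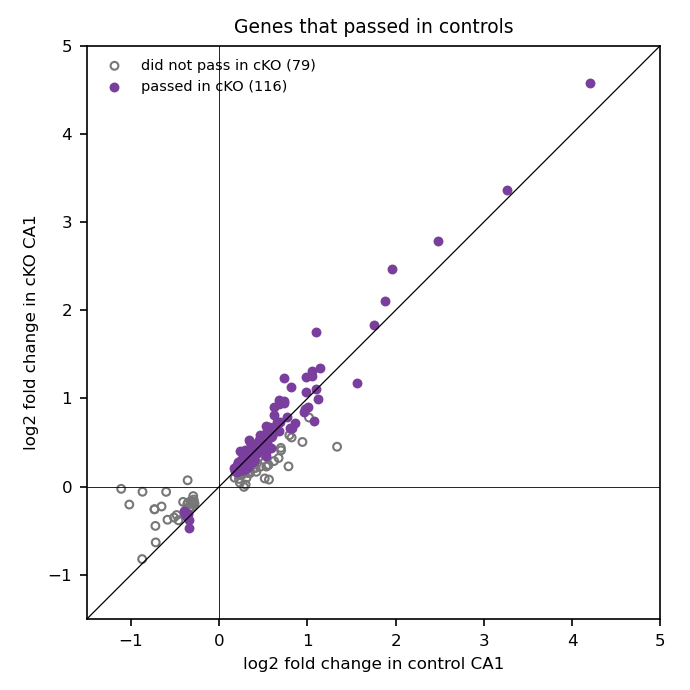
Log2 fold change after novelty in cKO CA1 (vertical axis, 7 against 6 libraries) against that in control CA1 (horizontal axis, 5 against 6 libraries) for the 195 genes that passed in controls and were tested in both, filled where the gene also passed in cKO mice, with the line of equal change. Of the 163 genes that rose in controls, 162 lie above 0 in cKO mice, on both sides of the line, and 110 passed there. Of the 32 that fell, 6 passed there.

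The authors' deposited table of the same comparison, made with DESeq2, lists 16041 genes, of which 447 (2.79%) have an adjusted p below 0.05, 348 higher and 99 lower after novelty. The calls shared with the same sign number 195, which is 99.5% of the 196 made here and 43.6% of the authors'. In the authors' deposited table Fos has a log2 fold change of 2.45 ± 0.22 (SE). That is smaller than its base means there, 57.7 for control naive and 571 for control novelty, would give, so it cannot be set directly against the edgeR value. Jun has 0.24 ± 0.07 with an adjusted p of 0.028, so Jun passes there and not in the edgeR fit. Dusp1 and Junb pass in the authors' deposited table as well, at adjusted p of 0.0432 and 0.0491, and Npas4 does not, at 0.133.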

How the data were processed

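Polyadenylated RNA of dissected CA1 was sequenced from TruSeq v2 libraries, which do not mark strand, so overlapping antisense genes cannot be told apart. Kits for single-end and paired-end runs are named, and which library had which is not given in the sources used here. The authors deposited raw read counts per gene, 1 table per library, with 38355 genes and 5 summary entries that were left out here (reads without a gene, 7.67 to 9.46% in control novelty and 7.8 to 9.95% in control naive libraries). STAR 2.3.0, HTSeq, DESeq2 and the build GRCm38.p2 were used, per the submitters' processing notes. Per the file headers, the authors' table of the comparison holds base means (a signal per group), log2 fold changes with SE, p-values and adjusted p-values. It gave symbols, positions and the comparison of calls.

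The main test, on the 11 control libraries, was edgeR's quasi-likelihood F test (edgeR 4.0.16 under R 4.3.3, robust fit, TMM, filterByExpr at a minimum count of 10, Benjamini-Hochberg over all genes tested, threshold 0.05). Alternatives used DESeq2 1.42.0, limma 3.58.1 and other scalings, filters and libraries. Scripts were tested on simulated data. Levels are CPM, and errors are SD for levels and SE for log2 fold changes. No 2 libraries agreed within sampling noise.

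Named genes are 20 chosen ones, the 15 largest rises and falls, and genes taken from lists. The rises and falls were taken among genes that passed with a mean count of at least 50. They also needed a gene symbol that is no predicted model and 1 sign in all fits without 1 library. Each list with a gene that passed, among 37 lists, gave up to 4 such genes with the smallest p. Genes and lists were chosen with earlier results of these data known. The interaction was fitted on all 24 libraries. Some genes of the lists are not reported here.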

Additional observations from a re-analysis of the deposited data

Results flagged for a closer look

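In 4 of the 130 groups examined, 65 named genes in each of control novelty and control naive, the extreme library stood apart from the rest by Dixon's criterion, which chance alone meets in about 1 in 20 groups. Jun had 54 CPM in control novelty 1, against 47.5 to 48.4 CPM in the other exposed libraries. Elk4 had 28.3 CPM in control novelty 3, against 31.6 to 32.2 CPM in the other exposed libraries. Fos had 5.71 CPM in control naive 4, against 1.98 to 3.27 CPM in the other naive libraries. Homer1 had 155 CPM in control naive 2, the shallowest library, against 121 to 129 CPM in the other naive libraries.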

How the results depend on the processing

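The count of 196 genes called was 169 to 233 with other size factors (211 with those of DESeq2, 169 with upper-quartile factors), no count filter (218), a minimum count of 50 (204), limma-voom (211) or a covariate for titles numbered 1 to 3 (233). It was 361 with DESeq2's test and 305 with all 24 libraries in 1 fit. Leaving out each library in turn gave 113 to 255. Upper-quartile factors put 78.7% of calls higher, against 83.7% here.

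Of the 65 named genes 58 passed, and 55 to 60 passed under these settings. Leaving out 1 library, 41 to 55 passed. No named gene that passed changed sign under any alternative run. Over all genes, 100 of 196 were called in every fit without 1 library and 72 under every alternative.

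Exposed and naive libraries share title numbers 1 to 5. A replicate block on them lowered the count to 97 genes, 94 higher and 3 lower, and the named genes that passed to 32. Junb passed in it. Deviations of same-numbered libraries correlated at -0.117 to 0.063, and no exposed library correlated best with its own number, so this check gave no sign of pairing by number. A small effect shared by libraries of the same number could escape it.

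The interaction called 0 genes under every alternative run. Genes near 1 CPM, such as Maff and Fas, rest on few reads per library. Gene counts do not separate isoforms, and cell types were not separated.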

Other observations

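The next 6 genes, which rose and belong to no list, were picked out after their values were seen and stand for no tested theme. Gpt2, a mitochondrial alanine aminotransferase, averaged 100 ± 8.33 CPM in control novelty and 66.5 ± 3.38 CPM in control naive libraries (SD, n = 5 and 6), with an edgeR adjusted p of 5.87e-05. Dio2, the deiodinase that activates thyroid hormone in astrocytes, averaged 108 ± 15 and 61.6 ± 5.62 CPM (adjusted p = 0.000112). Adipor2, a receptor for adiponectin, averaged 77.7 ± 6 and 51.7 ± 4.07 CPM (adjusted p = 0.000151). Mfsd2a, a lipid transporter of brain endothelium, averaged 20.2 ± 1.74 and 13.8 ± 1.05 CPM (adjusted p = 0.00095). Irs2, an adaptor of the insulin receptor, averaged 37.4 ± 3.93 and 25.2 ± 4.93 CPM (adjusted p = 0.0344), and Ppp1r3g, a glycogen-targeting subunit related to Ppp1r3c, 8.17 ± 1.37 and 4.54 ± 1.24 CPM (adjusted p = 0.0203). In each of these 6 genes every exposed library lay above every naive one.

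The next 3 genes that rose were picked out in the same way. The histone demethylase Jhdm1d averaged 119 ± 8.84 CPM in control novelty and 78.3 ± 8.52 CPM in control naive libraries (adjusted p = 0.000294), and the demethylase Kdm6b 33.4 ± 4.61 and 24.7 ± 3.07 CPM (adjusted p = 0.0446). Arid5a, an RNA-binding protein that stabilises transcripts, averaged 15.9 ± 2.02 and 9.1 ± 0.631 CPM (adjusted p = 0.000166).

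Sox2, like Sox9 a factor of astrocytes and neural stem cells, fell, with 25.8 ± 0.79 CPM in control novelty and 32.5 ± 3.13 CPM in control naive libraries (adjusted p = 0.0183). It was picked out after its values were seen.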
